A study of Mus musculus with 4 samples.

Results

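Transcripts of 10 genes of the circadian clock were followed in mouse liver: the activators Arntl (also named Bmal1), Clock and Npas2, the repressors Cry1, Per1, Per2, Per3, Nr1d1 and Nr1d2, and the output regulator Dbp. The genes were chosen by differences already seen in these arrays, so the levels and differences given for them are descriptions and no support for the choice. All non-control probes whose transcript accession belongs to one of the 10 genes were used, which gave 19 probes of the 56605 on the array and 10 of the 23462 genes that could be named. Of these genes, 3 had 1 probe, 5 had 2 probes and 2 had 3 probes.

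The liver samples came from male C57BL/6 mice aged 24 weeks and kept under 12 h of light and 12 h of dark. F/F mice carry loxP-flanked alleles of Lpiat1 (Mboat7), the gene of the enzyme that puts arachidonic acid into phosphatidylinositol, and no Cre recombinase. LKO mice carry the same floxed alleles and Alb-Cre, in which the albumin promoter drives Cre in hepatocytes, so other liver cells should keep the gene. Mice of each genotype were fed chow throughout, or a high fat diet (HFD) for 18 weeks from the age of 6 weeks. There was 1 array for each of the 4 conditions, called F/F chow and LKO chow, and F/F HFD and LKO HFD. Neither the labels nor the methods say whether an array held the RNA of 1 mouse or of a pool, at what hour the livers were taken, or whether the mice had been fasted. For genes whose level follows the hour of the day, the hour of sampling and the condition therefore cannot be told apart. Because each condition had 1 array, no test was made, and every difference below is a difference between arrays.

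In the mammalian clock, ARNTL pairs with CLOCK or NPAS2, and the pair binds E-box sequences to switch on the Per, Cry, Nr1d and Dbp genes. PER and CRY proteins return to the nucleus and block the pair, which closes the main loop of the clock. In a second loop, NR1D1 and NR1D2 (also called REV-ERB alpha and beta) repress Arntl and other genes through a nuclear receptor site that they share with the activating ROR receptors. DBP and its relatives bind D-box sequences and carry the rhythm to output genes, and NFIL3 represses through the same sites. In mouse liver the daily peaks follow each other in a textbook order: Arntl, Npas2 and Clock around the end of the night, then Nr1d1, Dbp and Nr1d2 in the light phase, then Per3, Per1 and Per2 towards dusk, and Cry1 during the night.

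The sites named above were searched as letters in the RefSeq promoter windows of build GRCm38.p6, each running from 250 bases before to 50 bases after an annotated start site, on both strands. A window was given for 9 of the 10 genes, 13 windows in all, and there was none for Per2. The sequences below are the stretches that hold a match, shown because the motifs searched are those of the loops described above, and the matched letters are in capitals.
Cry1, chr10:85185082-85185161, minus strand: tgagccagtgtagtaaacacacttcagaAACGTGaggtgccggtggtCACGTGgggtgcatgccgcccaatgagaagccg
Per1, chr11:69098746-69098825, plus strand: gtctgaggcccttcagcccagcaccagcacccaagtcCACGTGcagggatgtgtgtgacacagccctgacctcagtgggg
Nr1d1, chr11:98775378-98775457, minus strand: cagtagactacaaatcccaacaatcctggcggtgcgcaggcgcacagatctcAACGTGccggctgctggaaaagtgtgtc
Per3, chr4:151044804-151044883, minus strand: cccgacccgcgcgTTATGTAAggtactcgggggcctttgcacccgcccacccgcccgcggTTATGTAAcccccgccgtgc
Arntl, chr7:113207529-113207558, plus strand: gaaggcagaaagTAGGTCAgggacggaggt

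Cry1 held an E-box (CACGTG), whose first base lay 60 bases before the start, and an E′-box (CACGTT, read here from the other strand as AACGTG) 79 bases before it. Per1 held an E-box 166 bases before the first of its 2 annotated starts, and Nr1d1 held an E′-box 28 bases before its start. Per3 held 2 copies of the D-box (TTANGTAA), at 205 and 158 bases before its start. Arntl held a nuclear receptor half-site (TAGGTCA) 30 bases after the second of its annotated starts. Among all 32851 promoter windows, CACGTG was found in 7.15%, CACGTT in 4.68%, TTANGTAA in 2.32% and TAGGTCA in 2.61%. TGGGTCA, a second half-site found in 3.98% of all windows, and the cAMP response element TGACGTCA, found in 1.79%, matched in no window of the clock genes. The windows of Clock, Npas2, Nr1d2 and Dbp held none of these 6 motifs, which says only that the letters are not in these windows. A match is not a measured binding site.

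**Figure D1:**
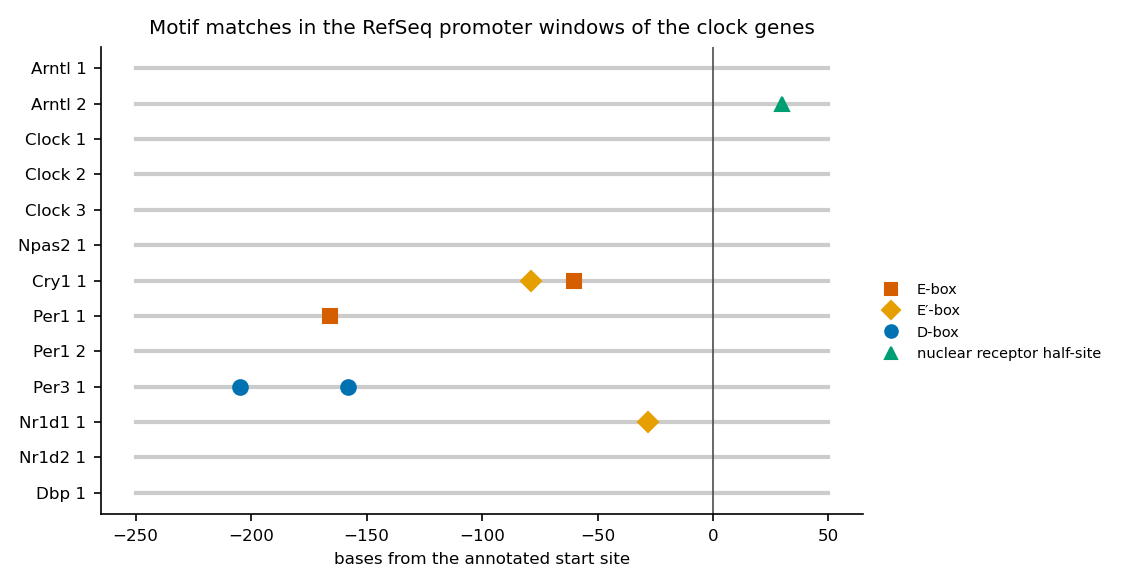
Motif matches in the 13 RefSeq promoter windows of 9 clock genes. The x axis gives bases from the annotated start site (vertical line), each grey line is 1 window, and symbols mark the first base of a match. Matches lay in 5 of the 13 windows, those of Arntl, Cry1, Per1, Per3 and Nr1d1.

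Signals are given as the processed spot signal in percent of the 75th percentile of the same array, first for both chow arrays and then for both HFD arrays, with F/F before LKO on each diet. The 75th percentile itself was between 213 and 296 signal units on the 4 arrays, and between 53.0% and 57.0% of spots were well above background by the flag of the scanner software. Levels of different probes are not comparable, so each probe was compared only with itself. A difference is a log2 difference, followed by the error that the scanner software assigns to it (± SE), and a gene was called different at a change of at least 2-fold. For spots printed more than once on an array and well above background, the SD of the log2 difference between copies was 0.0875, so 2 SD came to 0.175. Most of these were bright: 1104 of 1164 probe readings had 500 signal units or more. For dimmer copies the SD was 0.164 at 50 to 500 units and 0.301 under 50. The 2 SD of 0.175 is spotting error only: between 40.5% and 71.3% of all genes exceeded it, depending on the comparison. The spread between animals is unknown. Mboat7, the targeted gene, read 497, 404, 449 and 372%, which was lower in LKO by -0.30 on chow and by -0.27 on HFD. Whether its probe lies in the floxed exons was not determined, so this is a weak check of the genotype labels.

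Arntl, the activator whose loss stops the daily rhythm of activity in mice, stood apart on the F/F HFD array. Its brightest probe read 65.4, 47.9, 11.8 and 60.1%. The first, second and last of these lay within 0.45 of each other on the log2 scale, and the F/F HFD array lay 2.02 below the nearest of them. Arntl was thus higher in LKO than in F/F on HFD by 2.35 ± 0.23 (5.10-fold), and on chow the same difference was -0.45 ± 0.21. From chow to HFD it was lower by -2.47 ± 0.23 in F/F (5.55-fold) and differed by 0.33 ± 0.21 in LKO. Over the 4 arrays, the range of Arntl was larger than that of 98.8% of the 13981 genes measured on all of them. Without the F/F HFD array the range was 0.45.

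Arntl has 2 further, dimmer probes for the same transcript record. They read 10.8, 30.1, 2.04 and 9.18%, and 13.9, 10.5, 3.11 and 10.02%. Both were not well above background on the F/F HFD array alone, which puts that array lowest in all 3 probes. From the limit of detection, their levels in LKO HFD were at least 2.89-fold and at least 3.16-fold higher than in F/F HFD. On chow the probes did not go together: the second probe was higher in LKO by 1.48, while the other two were lower by -0.45 and -0.41. In LKO, from chow to HFD, the second probe gave -1.71, against 0.33 and -0.06 for the others. No direction is therefore given for Arntl outside the comparisons with the F/F HFD array.

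Clock, the partner of ARNTL, had its highest signal in F/F chow. The brightest probe read 259, 192, 155 and 157%. F/F chow lay 0.43 above LKO chow, which lay 0.29 above LKO HFD, and both HFD arrays were within 0.02 of each other. The HFD difference was -0.74 ± 0.20 in F/F and -0.29 ± 0.20 in LKO. A second probe read 130, 94.4, 78.0 and 117%, so it gave nearly the same differences between genotypes on chow (-0.46) and between diets in F/F (-0.73). It was higher in LKO than in F/F on HFD by 0.59, where the brightest probe gave 0.02, and the diet difference in LKO was 0.31 against -0.29. The third probe read 3.73% in F/F chow and was not well above background on the other 3 arrays.

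Npas2, which can take the place of CLOCK, has 1 probe. It read 1.87, 1.66, 0.80 and 2.21%, and was well above background on no array, so no difference is given for it.

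Cry1, the repressor with the latest peak, was low on the same array as Arntl. Its brightest probe read 12.7, 12.2, 4.44 and 9.24%. The second probe, which also was well above background on all arrays, read 11.5, 11.6, 4.71 and 8.77%. Both probes placed F/F HFD lowest and the chow arrays next to each other. On HFD, Cry1 was higher in LKO by 1.06 ± 0.30 (2.08-fold) in the first probe and by 0.90 in the second. From chow to HFD in F/F it was lower by -1.51 ± 0.30 and -1.29. The chow genotypes differed by -0.06 ± 0.24, and LKO differed by -0.40 between diets in both probes. Cry1 is dim: copies of spots at this brightness (under 50 signal units) had an SD of 0.301 for their difference, and by 2 such SDs the F/F HFD array was still separate from the next one.

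The 3 Period genes, whose products pair with CRY in the repressing complex, varied less. Per1, which has 1 probe, read 802, 907, 978 and 777%, a range of 0.33, which was larger than that of 30.3% of genes. The difference between genotypes was -0.33 ± 0.20 on HFD and 0.18 ± 0.20 on chow. Per1 was called in no comparison.

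Per2 had its higher signals in LKO chow and F/F HFD. Its brightest probe read 172, 263, 256 and 179%, so the arrays formed a high pair and a low pair, with 0.51 between them and at most 0.06 within each. It was higher in LKO on chow by 0.61 ± 0.20 and lower in LKO on HFD by -0.51 ± 0.20. The diet differences were 0.57 in F/F and -0.55 in LKO. A dim second probe read 6.44, 6.20, 4.92 and 3.96%, and its differences of -0.06 on chow and -0.39 between diets in F/F do not show the high pair.

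Per3 was lowest in F/F chow and highest in F/F HFD. Its brightest probe read 25.0, 34.6, 43.7 and 30.7%, which gave 0.80 ± 0.21 from chow to HFD in F/F and -0.17 ± 0.21 in LKO. Between genotypes it differed by 0.47 on chow and -0.51 on HFD. The other probe, for another transcript record of Per3, was well above background on no array.

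Nr1d1, the REV-ERB receptor with the stronger rhythm, was split by genotype. Its single probe read 71.7, 43.7, 77.5 and 37.3%, so both F/F arrays were above both LKO arrays, by 0.72 or more. LKO was lower by -1.05 ± 0.20 on HFD (2.08-fold) and by -0.72 ± 0.21 on chow. Diet moved it less, by 0.11 in F/F and -0.23 in LKO. Leaving out the F/F HFD array kept a range of 0.94, against 1.05 with it.

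Nr1d2, the related receptor, was low on the LKO HFD array. The brightest probe read 392, 399, 434 and 278%, and the second read 193, 208, 229 and 145%. Both put the 4 arrays in the order F/F HFD, LKO chow, F/F chow and LKO HFD. On HFD the LKO level was lower by -0.65 ± 0.20 in the first probe and by -0.66 in the second. On chow the genotypes differed by 0.03 and 0.11. Without the LKO HFD array the range of Nr1d2 fell from 0.65 to 0.15.

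Dbp, a direct target of the ARNTL pair, was high in F/F HFD. Its probes read 2721, 2857, 5470 and 2341%, and 2215, 2657, 4771 and 2176%. The other 3 arrays lay within 0.29 of each other in each probe. On HFD the LKO level was lower by -1.22 ± 0.20 (2.34-fold) and -1.13, and from chow to HFD it was higher in F/F by 1.01 ± 0.20 (2.01-fold) and 1.11. In LKO the diet difference was -0.29 in both probes, and on chow the genotypes differed by 0.07 and 0.26. The range of Dbp was larger than that of 89.0% of genes. Summed blood cell markers were also highest on the F/F HFD array, at 199 times the 75th percentile against 101 to 107 times on the others, and their part in the Dbp difference was not tested.

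**Figure D2:**
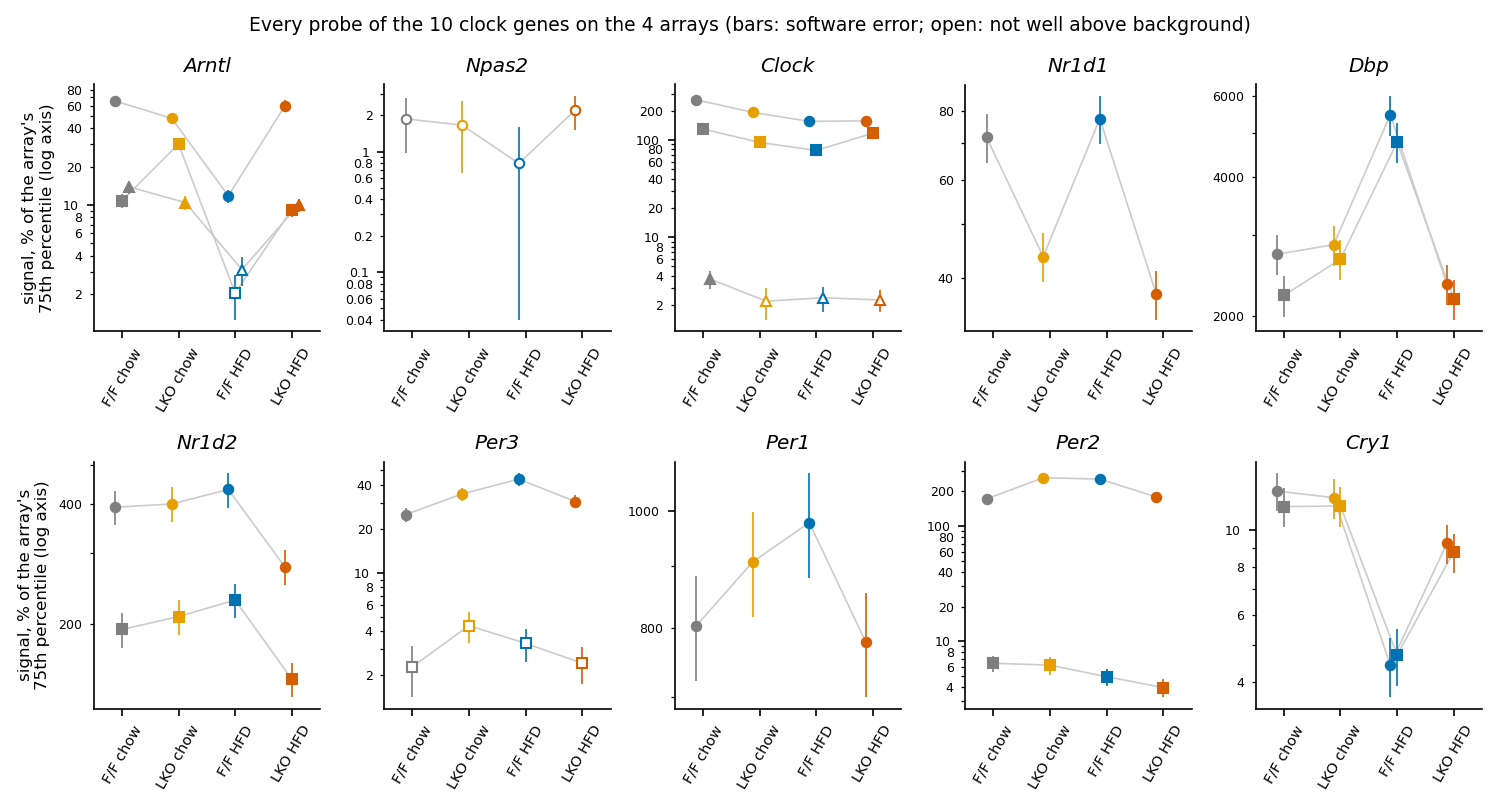
Signals of all 19 probes of the 10 clock genes on the 4 arrays, in percent of the array's 75th percentile (log axis). Circles, squares and triangles are the probes of a gene from brightest to dimmest, bars are the error given by the scanner software, and open symbols were not well above background. F/F HFD is lowest for all 3 Arntl probes and both Cry1 probes and highest for both Dbp probes.

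Next, the order of the 4 conditions by the brightest probe was set beside the textbook order of daily peaks, over the 9 genes measured on all arrays. F/F HFD was lowest for Arntl, Clock and Cry1, whose peaks lie in the night and around its end, and highest for Nr1d1, Dbp, Nr1d2, Per3 and Per1, whose peaks lie in the light phase and towards dusk. This array was thus an extreme for 8 of the 9 genes. Over all genes it was highest for 20.6% and lowest for 19.3%. The clock genes were chosen by differences seen on these arrays, so nothing is read from a comparison with these shares. F/F chow was highest for Arntl, Clock and Cry1 (30.3% of all genes) and lowest for Per2 and Per3 (25.4%). Second probes did not all give these ranks. LKO chow was highest in that of Arntl (30.1%, against 10.8% in F/F chow) and, by little, in that of Cry1 (11.6% against 11.5%). In the second Per2 probe F/F chow was highest, at 6.44%. LKO HFD was highest for none (25.7%) and lowest for Nr1d1, Dbp, Nr1d2 and Per1 (39.8%). LKO chow was highest for Per2 alone (23.4%) and lowest for none (15.5%).

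Neighbours in the order were often too close to separate. Of the 27 pairs of neighbours, 15 differed by more than 2 SD of copied spots, and 11 did so when the SD was taken from spots of like brightness, a choice made after the data were seen. With the brightness taken into account, F/F HFD was separate below the next array for Arntl and Cry1 and above it for Dbp and Per3. It was not separate from its neighbour for Clock, Nr1d1, Nr1d2 and Per1. LKO HFD was separate below the next array for Nr1d2 and Dbp. Arntl in F/F chow and LKO HFD differed by 0.12, Cry1 in both chow arrays by 0.06, and Nr1d1 in both F/F arrays by 0.11.

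The order of the arrays was not the same for all genes, and whether a shift in hour or phase had a part was not tested. For example, Nr1d1 lay 0.39 above its own mean of the 4 arrays in F/F chow, where Dbp lay at -0.22. Nr1d2 was even over the first 3 arrays. Without the F/F HFD array, ranges of the brightest probe were 0.45 for Arntl, 0.45 for Cry1 and 0.29 for Dbp. They were 0.94 for Nr1d1, 0.72 for Clock, 0.61 for Per2 and 0.52 for Nr1d2. In the brightest probes, the ranges of Arntl, Cry1 and Dbp therefore rested on the F/F HFD array. That of Nr1d2 rested on the LKO HFD array (0.15 without it), and that of Clock was 0.31 without the F/F chow array. For Nr1d1 and Per2, leaving out any single array left at least 0.83 and 0.55. Not all second probes gave this picture. That of Arntl still differed by -1.71 between diets in LKO, against -0.40 and -0.29 in those of Cry1 and Dbp. That of Clock differed by 0.59 between genotypes on HFD.

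**Figure D3:**
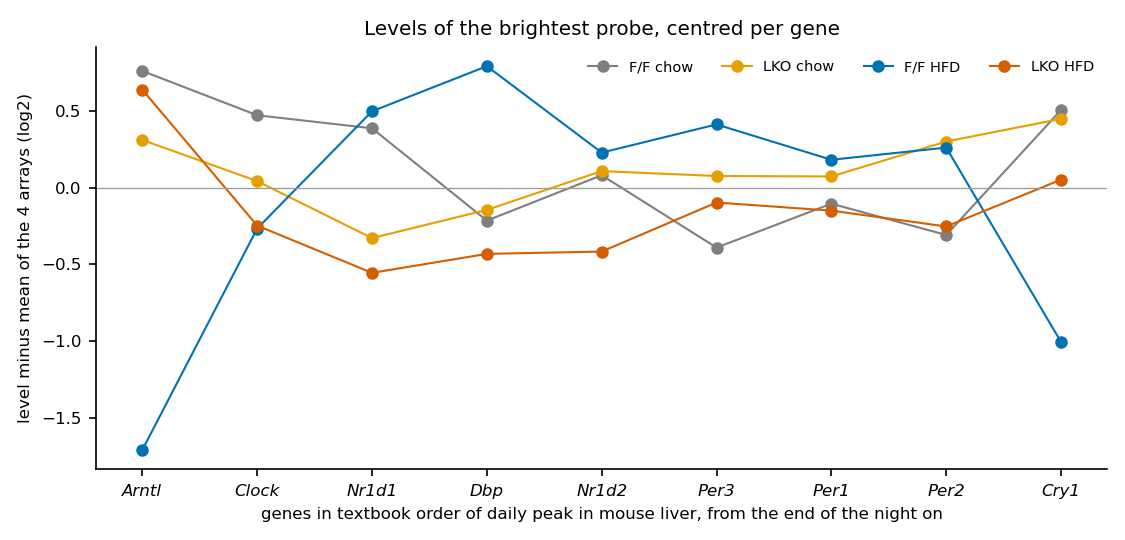
Levels of the brightest probe of 9 clock genes, as log2 minus the mean of the 4 arrays (y axis), with genes along the x axis in textbook order of daily peak. Each line is 1 array, and there are no replicates. The F/F HFD line runs from -1.71 at Arntl to 0.79 at Dbp and back to -1.01 at Cry1, while the LKO HFD line is at 0.64 at Arntl and below 0 from Clock to Per2.

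Both comparisons with the F/F HFD array held called differences. For LKO against F/F on HFD, 4 of 9 genes were at least 2-fold different: Arntl and Cry1 were higher, and Dbp and Nr1d1 were lower. Over all genes 4.26% were called there. For HFD against chow in F/F, 3 of 9 were called, with Arntl and Cry1 lower and Dbp higher, against 8.15% of all genes. For LKO against F/F on chow 0 of 9 were called (2.14% of all genes), and for HFD against chow in LKO 0 of 9 (12.2%). The first pair of comparisons share the F/F HFD array, which enters them with opposite signs, so they are not separate observations. The genes were chosen with these comparisons known, and nothing is read from the counts.

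The median of the 9 genes was farthest from 0 in the genotype comparison on HFD. The medians were -0.51 for LKO against F/F on HFD (all genes -0.03), 0.03 on chow (0.00), 0.15 for HFD against chow in F/F (-0.02) and -0.29 in LKO (-0.07). In LKO 8 of the 9 genes were lower on HFD by the brightest probe, by at most 0.55 in size. Over all genes 43.5% were higher in that comparison, and the median size was 0.33, against 0.29 for the clock genes. The ninth gene was Arntl, whose probes disagreed between diets in LKO (0.33, -1.71 and -0.06). The difference of differences is the diet difference in LKO minus that in F/F. By the brightest probe it was 2.80 for Arntl, 1.12 for Cry1, 0.45 for Clock and below 0 for the other 6. It was -1.29 for Dbp, -1.12 for Per2 and -0.98 for Per3, and smaller in size for Nr1d2 (-0.67), Per1 (-0.51) and Nr1d1 (-0.34). These sizes depended on the probe. Second probes gave diet differences in F/F and LKO of -0.73 and 0.31 for Clock, and of -0.39 and -0.65 for Per2. For Arntl they were -1.77 or lower and -1.71. Second probes of Cry1, Nr1d2 and Dbp differed from the brightest by at most 0.22 in either diet difference. With 1 array per condition none of these was tested.

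**Figure D4:**
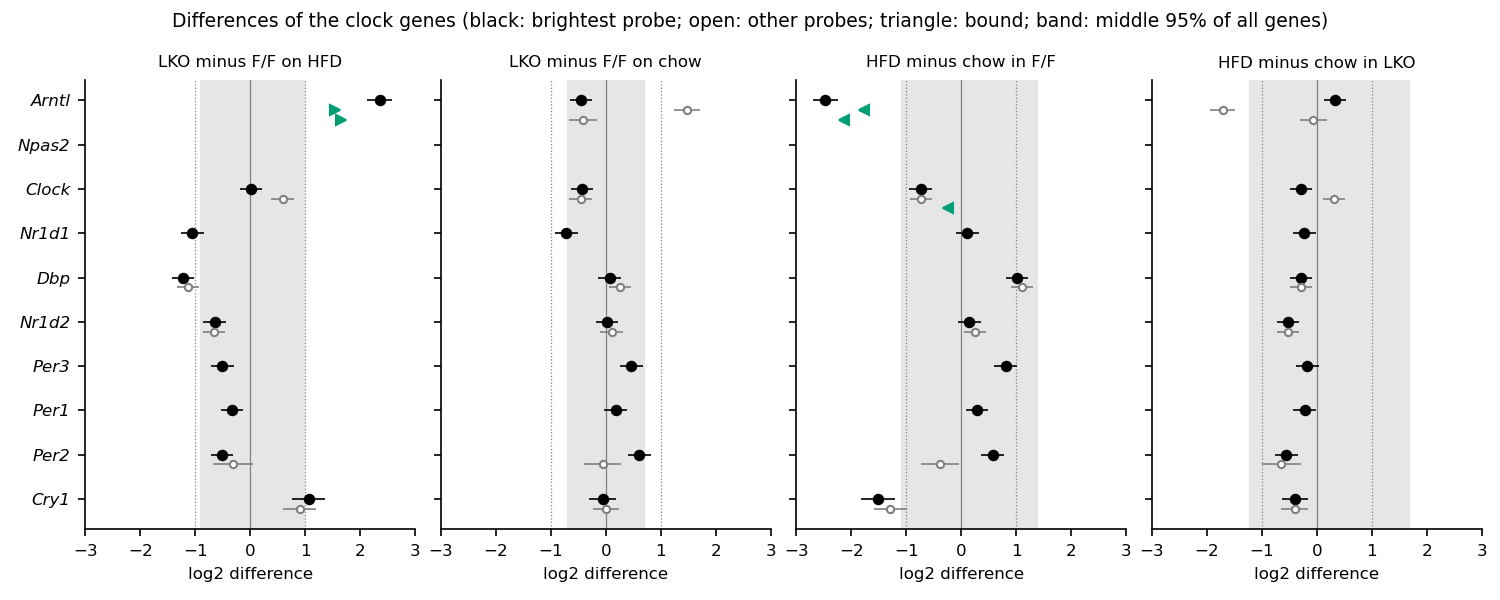
Log2 differences of the clock genes in the 4 comparisons (x axis, 1 panel each), with genes in textbook order of daily peak. Black points are the brightest probe with the software SE, open points are other probes, triangles are bounds where a probe was not well above background on 1 array, dotted lines mark 2-fold, and the band holds the middle 95% of all genes. By the brightest probe, Arntl (2.35 and -2.47) and Cry1 (1.06 and -1.51) lie outside the band in both comparisons with F/F HFD. Dbp (-1.22) and Nr1d1 (-1.05) lie outside it between genotypes on HFD, and Nr1d1 (-0.72) on chow.

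The other genes of the clock, a list of 20 of which 19 had a probe and 18 gave a value, held at most 1 called gene in a comparison. Over all genes, 4.26% were called between genotypes on HFD and 2.14% on chow, and 8.15% between diets in F/F and 12.2% in LKO. Nothing is read from the counts in this list. For LKO against F/F on HFD, 9 were higher and 9 lower, with a median of -0.04, and 1 was called: Ciart, a repressor of the ARNTL pair, at -1.48 (72.8, 69.7, 114 and 40.6%). For HFD against chow in F/F, 12 were higher and 6 lower, and the only called gene was Nfil3, the D-box repressor, at -1.96 (2011, 1941, 518 and 835%). Nfil3 was also the only one called between diets in LKO, at -1.22, and on chow none of the 18 was called between genotypes. The relatives of Dbp, named here for that role, read 6196, 6388, 6782 and 3883% for Tef, and 396, 369, 421 and 251% for Hlf. Both were low in LKO HFD, by -0.80 and -0.74 against F/F HFD, and neither was high in F/F HFD in the way of Dbp, with diet differences of 0.13 and 0.09 in F/F.

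Among 17 output genes with a known daily rhythm in liver, the called genes are given beside the shares over all genes stated above for each comparison. Between genotypes, 1 was called on HFD and 2 on chow, and between diets 6 were called in F/F and 3 in LKO. In the genotype comparison on HFD, Cdkn1a, a cell cycle inhibitor, was higher in LKO by 1.09, and on chow Cyp7a1, the rate-limiting enzyme of bile acid synthesis, was lower by -1.57 and the kinase Pim3 by -1.04. Between diets in F/F, Avpr1a (-1.98), Elovl3 (-1.60), Tfrc (-1.53), Pim3 (-1.25) and Lonrf3 (-1.11) were lower, and Rgs16, a regulator of G protein signalling, was higher by 1.58. Rgs16 read 4037, 5536, 12058 and 6273%, so F/F HFD was its highest array, as for Dbp. Between diets in LKO, Usp2 (-1.38), Por (-1.32) and Elovl3 (-1.24) were lower. The medians of the 17 were -0.34 between genotypes on HFD, -0.06 on chow, -0.56 between diets in F/F and -0.37 in LKO.

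Feeding, glucocorticoids and body temperature also set the phase of the liver clock, so lists of genes that respond to each were described. The shares called over all genes were 4.26% between genotypes on HFD, 2.14% on chow, 8.15% between diets in F/F and 12.2% in LKO. Nothing is read from the counts in these short lists. Of 9 feeding-induced genes 1 was called between genotypes, the immediate early gene Egr1, at -1.04 on HFD and -1.50 on chow, and none between diets. Of 10 fasting-induced genes, G6pc, which releases glucose, was lower in LKO on HFD by -1.24 and higher from chow to HFD in F/F by 1.06. Pdk4, which holds back glucose oxidation, was lower in LKO on chow by -1.002 and lower from chow to HFD in F/F by -2.24. The median of the fasting-induced list was -0.26 between genotypes on HFD, with 1 gene higher and 9 lower, and -0.02 on chow. Of 8 glucocorticoid-responsive genes none was called between genotypes, with medians of -0.27 on HFD and -0.07 on chow. Between diets, Fkbp5 (-1.14) and Mt2 (-1.01) were lower and Sgk1 was higher by 1.10 in F/F, and Mt2 (-1.21) and Tat (-1.04) were lower in LKO. Of 8 temperature-responsive genes, Hspa1a was higher in LKO on chow by 1.25, Hspa1b, a near-identical copy whose probe may not tell them apart, was lower on HFD in LKO by -1.03, and the medians between genotypes were -0.01 on HFD and 0.17 on chow. Whether feeding, hormone level or temperature had a part in the clock gene differences was not tested.

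**Figure D5:**
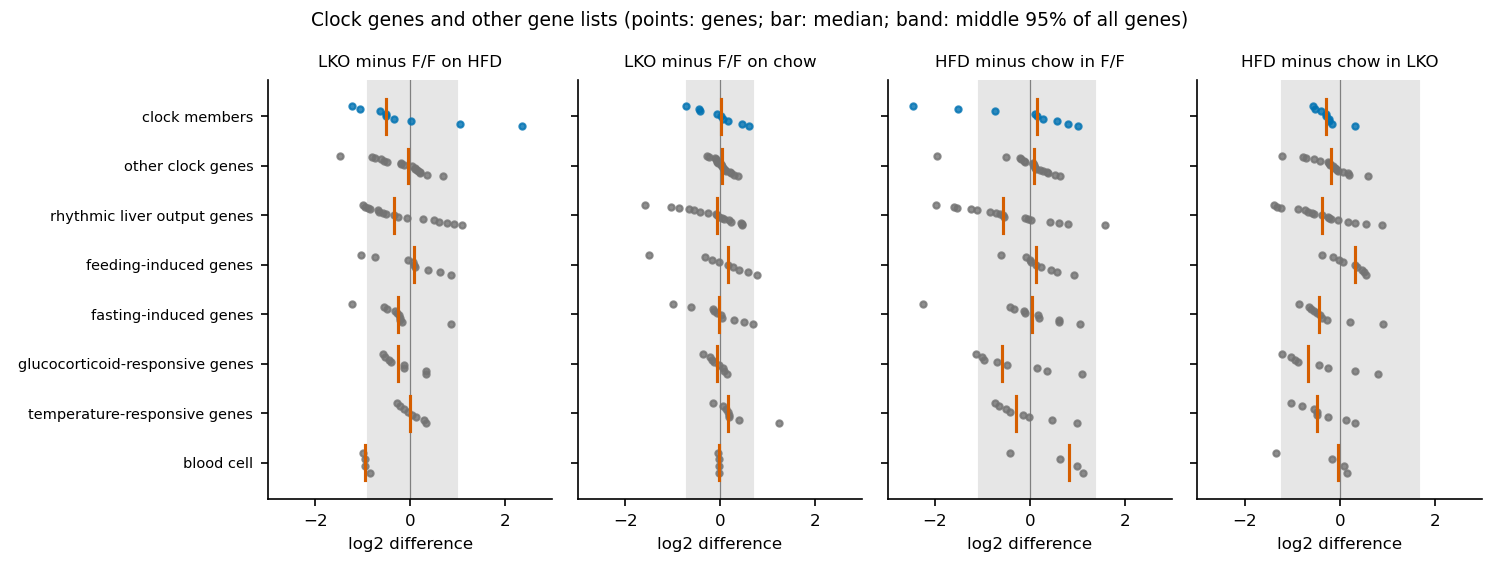
Log2 differences (x axis) of the clock genes and 7 other lists in the 4 comparisons, 1 panel each. Points are genes, the upright bar is the median of a list, and the band holds the middle 95% of all genes. The 4 measured blood cell genes lie between -0.98 and -0.84 for LKO against F/F on HFD.

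Genes with a profile most like that of Arntl, among 2310 genes outside the list with a range of at least 1 over the arrays, were Srrm4, Xlr4a, Serpinb1c, Cd276 and Socs2. Their root mean square distance to the centred Arntl profile was between 0.37 and 0.45 over the 4 arrays, and none was as low in F/F HFD as Arntl (-1.71 from its mean, against -1.53 for Socs2 at the nearest). Among the genes most like Dbp, which lay closer, were Hbb-b1, Extl1, Gm4208 and Orm3, at 0.09 to 0.10. Hbb-b1 is a beta-globin chain of red blood cells. With 4 arrays a near profile is easily found.

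Markers of blood cells moved with the F/F HFD array, as Dbp did. The list had 4 markers measured on all arrays. Its summed signal, as a multiple of the 75th percentile, was 107, 105, 199 and 101. The haemoglobin gene Hba-a1 was higher from chow to HFD in F/F by 1.12, whereas Alas2, the haem synthesis enzyme of red cells, was at -0.42. Exocrine pancreas markers, all 6 of them measured, were summed to 22.5, 13.5, 11.7 and 43.7 and were highest in LKO HFD. The 6 hepatocyte markers were measured on all arrays, at 3599, 3658, 2975 and 2493, so markers of the labelled tissue were present and their sum was lowest in LKO HFD. The part of these cells in the clock gene differences was not tested, and in bulk liver fewer cells of a type and less RNA per cell cannot be told apart.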

How the data were processed

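Total RNA from liver was measured on 1-colour Agilent SurePrint G3 mouse arrays. The deposited intensity values were made by the authors with Agilent Feature Extraction 12.0.3.1, which subtracted background and corrected spatial trends within each array. All 4 arrays were on 1 slide and in 1 scan. A second deposited table holds the same intensity values times 1 factor per array, whose origin is not stated. Here, log2 of the processed signal minus that of the 75th percentile over non-control spots was taken, without spots with outlier flags. No spot was saturated. Probes were named through RefSeq accessions (33767 of 56605 matched). A gene was represented by its brightest probe, and bounds were used where 1 array was not well above background. No differences were tested, as each condition had 1 array. Members and lists were chosen with earlier results of these data known. Named genes were all members, list genes called at least 2-fold (at most 6 per list and comparison), the 5 nearest profiles to Arntl and to Dbp, and Mboat7. Some genes that these rules or lists name are not reported here. Alternatives were normexp (limma 3.58.1, offset 50, R 4.3.3), quantile normalization, other references for the percentile, the deposited table, other probes of a gene, no filter, and calls at 1.5-fold and 4-fold. Scripts ran in Python 3.11.15 and were tested on simulated data.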

Additional observations from a re-analysis of the deposited data

Results flagged for a closer look

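By the brightest probe, 5 clock genes had differences of opposite sign. The diet difference went one way in F/F and the other way in LKO, or the genotype difference did so between diets. Each was larger than 2 SD of copied spots. This size was chosen after the data were seen, and at 1.5-fold in both directions there were 0 such genes. In a single comparison, between 40.5% and 71.3% of all genes exceed 2 SD. The share of all genes that meet the whole rule is not given here, so nothing is read from the count. The diet difference in LKO minus that in F/F was 2.80 for Arntl, -1.29 for Dbp, -1.12 for Per2, -0.98 for Per3 and -0.51 for Per1. The opposite signs of Per2, and those of the Arntl diet differences, hold for the brightest probe only. The opposite Arntl genotype differences were also seen in the third probe, at -0.41 on chow and at least 1.66 on HFD. They were not seen in the second probe, at 1.48 on chow and at least 1.53 on HFD. Other Arntl probes gave -1.71 and -0.06 between diets in LKO, against 0.33, and 1.48 and -0.41 between genotypes on chow, against -0.45. The second Per2 probe gave -0.39 between diets in F/F and -0.06 between genotypes on chow. Other second probes met the rule where the brightest did not. That of Clock gave -0.73 in F/F and 0.31 in LKO between diets, and -0.46 on chow and 0.59 on HFD between genotypes. That of Nr1d2 gave 0.25 in F/F and -0.52 in LKO between diets. The second Dbp probe also had opposite genotype differences, 0.26 on chow and -1.13 on HFD. Per1 between diets in LKO went from -0.22 to -0.006 with normexp, -0.10 with quantile normalization and -0.08 with the deposited table. Dbp there went from -0.29 to -0.11 with quantile normalization and -0.14 with the deposited table. The difference was not tested, since each condition had 1 array.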

How the results depend on the processing

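No paired analysis was possible because each condition had 1 array and no replicate number. For LKO against F/F on HFD, the 4 called clock genes became 2 with normexp and 1 at a 4-fold limit. With normexp the share of all genes called also fell, from 4.26% to 1.17% there and from 8.15% to 2.38% for HFD against chow in F/F. Shares over all genes at 1.5-fold and 4-fold are not given here, so nothing is read from those counts. The clock gene median of -0.51 for LKO against F/F on HFD became -0.34 with normexp and -0.42 with the mean of all probes. It became -0.33 with the dimmest probe and -0.42 with no filter. On chow, 0 called genes became 2 at 1.5-fold, and the median of 0.03 became 0.17 with the mean of all probes. For HFD against chow in F/F, 3 called genes became 2 with normexp (Cry1 went from -1.51 to -0.50), 5 at 1.5-fold and 1 at 4-fold, and the median of 0.15 became 0.24 with normexp, 0.28 with the deposited table and -0.061 with the dimmest probe. In LKO the median of -0.29 became -0.14 with the deposited table and -0.40 with the mean of all probes, and the count stayed at 0 in the alternatives run. At 2-fold the share over all genes there ran from 4.55% with normexp to 14.6% with no filter. The deposited table moves the median of all genes from -0.02 to 0.11 in F/F and from -0.07 to 0.07 in LKO, so its shifts of the diet medians are mostly those of all genes. Normexp adds an offset of 50 to each signal, which draws dim probes together by construction: Cry1 on HFD went from 1.06 to 0.16 and Arntl from 2.35 to 1.20. The cause of the other moves was not tested. In none of the 8 alternatives did Arntl, Cry1, Dbp or Nr1d1 change direction between genotypes on HFD. Most of these alternatives could hardly have changed it. The values of these genes are the same with no filter, and other percentile references and the deposited table shift all genes alike. Nr1d1 has 1 probe, so the probe alternatives repeat its value. The kept direction is therefore a weak check. Signals near background limit Cry1, Npas2 and the dimmer probes of Arntl, Clock, Per2 and Per3.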
